A study of Mus musculus with 4 samples.

Results

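CTCF summits were located around 7 genes that specify mesoderm and endoderm: Eomes, Mesp1, Mixl1, Sox17, Foxa2, Gata4 and Gata6. The genes were taken by name, and every summit inside one of them or within 20 kb of either end was counted, out of 46852 RefSeq genes off chromosome 11. Together the 4 libraries held 29, 18, 16 and 26 summits in these windows, of 93969, 74555, 66365 and 99177 peaks in the whole lists. Summits of different libraries that lay within 100 bp of the next were joined, which gave 39 positions. Of these, 12 carried a summit in all 4 libraries, against 32.8% of the 123687 positions off chromosome 11, and these 12 are called shared below. Of the rest, 1 was in 3 libraries, 12 in 2 and 14 in a single one, against 38.7% of all positions for the last. These counts follow summits, and peaks of positions counted apart can overlap, as at Eomes, Gata4, Gata6, Sox17 and Mesp1. Joining any overlapping peaks instead gave 31 positions, 11 of them in all 4 libraries.

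The data are 4 CUT&RUN peak lists, each from 1 library of a mouse embryonic stem cell (mESC) line with its own genotype. In CUT&RUN a nuclease tethered to an antibody cuts out the DNA around the bound protein, here CTCF. Every line has one HoxB chromosome labelled Del and one labelled Del(i9-13), into which a CTCF site array, Ins(CBS5-10), was placed. The Ins line carries that array as it is, the Del(CBS8-10) line lacks CBS8-10 of it, the Inv line has it inverted as Inv(CBS5-10), and the Inv:Del(CBS7-10) line has the inverted array without CBS7-10. Values given as a series of 4 follow this order, called library order below. All edits lie on chromosome 11 and all 7 genes on other chromosomes, and the labels do not say how many clones or cultures stand behind a library. With 1 library per genotype there is no replicate error and no test between lines, so differences between libraries below are descriptions.

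CTCF is a zinc-finger protein that binds a long asymmetric motif and stops the cohesin complex as it extrudes chromatin loops, so that its sites often mark domain borders and loop anchors. Eomes, Mesp1 and Mixl1 are transcription factors switched on as cells pass through the primitive streak, and Sox17, Foxa2, Gata4 and Gata6 act in endoderm and, for the GATA factors, in heart. In undifferentiated embryonic stem cells such genes are generally silent or held in a repressed, poised state. CTCF peaks do not measure expression, so neither the silence of these genes nor the stem cell identity of the lines was checked here.

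Each peak has 3 values here. The −log10 q is the peak caller's measure of how unlikely the peak is under local background, and it grows with sequencing depth. The fold is the fragment pileup over the local background of the same library. The pileup, the number of fragments covering the summit, was recovered from the deposited fold and −log10 p. The commonest local background of a list, a stand-in for depth, was 0.858, 0.553, 0.19 and 1.327 fragments in library order, so the Inv:Del(CBS7-10) list is the deepest by this measure and the Inv list the shallowest.

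The sequence under one shared position could be read, because it falls on the start of Gm33460, a long noncoding RNA gene that lies next to Eomes. RefSeq's promoter window of Gm33460 (GRCm38.p6, chr9:118489730-118490029, minus strand) held the summits of all 4 libraries, at 118489818, 118489830, 118489813 and 118489826 in library order. It is shown because, of 32 promoter windows tabulated in and around the gene windows, it alone held a summit in any library. The 32 belonged to 7 genes, of which only 3 were regulators, namely Eomes, Foxa2 and Mesp1. For Mixl1, Gata4, Gata6 and Sox17 no promoter window was tabulated. Capitals mark matches, on either strand, to the 7-letter core of the CTCF motif, searched as AGGGGGC or AGGTGGC or AGAGGGC or AGATGGC, words that do not overlap each other here.
Gm33460: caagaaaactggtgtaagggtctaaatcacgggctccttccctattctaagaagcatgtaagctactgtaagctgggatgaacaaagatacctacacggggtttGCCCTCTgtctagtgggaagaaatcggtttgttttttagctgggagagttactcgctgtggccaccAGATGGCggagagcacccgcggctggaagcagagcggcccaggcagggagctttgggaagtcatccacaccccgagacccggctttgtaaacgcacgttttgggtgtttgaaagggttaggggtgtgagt

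The match AGATGGC spanned bases 118489853 to 118489859 and its centre lay 38, 26, 43 and 30 bp from the summits in library order. A match to AGAGGGC on the opposite strand lay farther away, with its centre 104, 92, 109 and 96 bp from them. At least 1 of the 4 words occurs in 27.6% of the 32851 promoter windows in the RefSeq table, so a match is common and is given as a description of the sequence. The promoter window of Eomes itself (chr9:118477939-118478238, plus strand) is shown for comparison. No summit of any library fell in it, and none of the words is in these letters. Words also occurred in windows that held no summit. A Foxa2 window (chr2:148045899-148046198) had 3 matches, and windows of Gm33408, 9030622O22Rik and Mesp2 had matches too.
Eomes: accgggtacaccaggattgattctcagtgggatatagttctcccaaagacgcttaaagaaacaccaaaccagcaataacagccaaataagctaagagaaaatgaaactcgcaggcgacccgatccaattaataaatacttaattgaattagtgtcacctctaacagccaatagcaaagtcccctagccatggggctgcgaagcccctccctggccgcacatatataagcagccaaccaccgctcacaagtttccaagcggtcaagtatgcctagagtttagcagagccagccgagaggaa

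**Figure D1:**
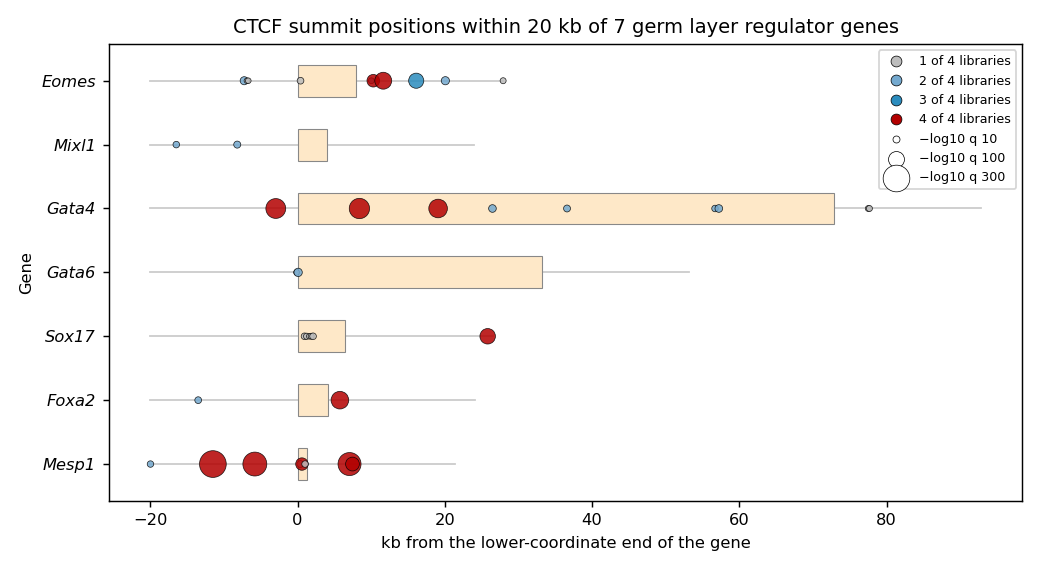
Positions of CTCF summits along each gene and its 20 kb flanks, in kb from the gene's lower-coordinate end. Boxes are gene spans, circle area grows with the highest −log10 q, and colour gives the number of libraries. Of the 12 positions found in all 4 libraries (dark red) 5 are at Mesp1, and Mixl1 and Gata6 have none.

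Mesp1, a basic helix-loop-helix factor of early heart and head mesoderm, had the 3 positions with the highest −log10 q of the group. Its window held 8 positions, 5 of them in all 4 libraries. That is 12.1 shared positions per 100 kb against a median of 2.44 over protein-coding genes, and 98.0% of those genes had a lower density. Gene spans are those of the RefSeq table, where Mesp1 takes 79792241 to 79793590 on chromosome 7 and is read from the minus strand, with its start at 79793590.

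The position with the highest −log10 q in any one library lay at 79780742, within the neighbouring gene Wdr93 and 12.8 kb downstream of the Mesp1 start. Its −log10 q was 164, 56.1, 87.3 and 302 in library order, its fold 26.3, 18.8, 24.7 and 27.3, and its pileup 153, 56, 79 and 287 fragments. The 4 summits lay within 14 bp of each other. In 3 of the libraries the peak stood above 98% of its own list (percentiles 98.7, 98.7 and 98.2), and in Del(CBS8-10) at the percentile 94.6.

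A similar peak at 79786439, between Wdr93 and Mesp1 and 7.15 kb downstream of the start, had a −log10 q of 169, 79.0, 77.2 and 239, above the former in Ins and Del(CBS8-10). Its fold was nearly level across the lines, at 24.6, 21, 22.3 and 25.1, the highest being 1.19 times the lowest. On the other side of Mesp1, towards its paralogue Mesp2, a pair of summits shared a single peak interval in every library. The nearer, at 79799298 and 5.71 kb before the Mesp1 start, had a −log10 q of 124, 38.6, 30.0 and 221 and a fold of 18.7, 12.8, 14 and 19.6. The farther, at 79799701, was weaker, with 49.6, 23.9, 7.15 and 72.1 and folds of 10.4, 9.52, 5.93 and 9.52. Mesp1 thus sat between strong sites on both sides in all 4 lines.

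The fifth shared position lay inside Mesp1, at 79792833 and 757 bp after its start. It was the weakest of the 5 by the highest −log10 q, which was 23.3, 6.83, 8.44 and 56.3 in library order, with folds of 9.94, 5.91, 7.14 and 12.2 and pileups of 32, 12, 11 and 75. The Ins and Inv:Del(CBS7-10) values were thus the higher in each measure. A weak summit in Ins (−log10 q 8.95, at 79792621) and another in Inv:Del(CBS7-10) (7.29, at 79793260) lay beside it. The remaining position, at 79772267 in Wdr93, had 6.94 in Ins and 4.35 in Inv:Del(CBS7-10).

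Eomes, a T-box factor needed for mesoderm migration and definitive endoderm, had the most positions of the 7 genes, at 10, and these were unevenly placed. The gene takes 118478186 to 118486132 on chromosome 9, is read from the plus strand and has a tabulated start at 118478189. The strong sites lay past its 3′ end, in or beyond Gm33460, and none lay at its own start. Its density of 20.9 positions per 100 kb was above that of 92.8% of protein-coding genes, whereas for shared positions (4.17 per 100 kb) the figure was 66.2%.

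The strongest, at 118489822, is the one at the Gm33460 start whose sequence is printed above, 11.6 kb after the Eomes start. It had a −log10 q of 63.7, 27.7, 23.1 and 114 and a fold of 9.92, 9.72, 11 and 12.3. Inside Gm33460, at 118488471 and 10.3 kb after the Eomes start, −log10 q was 57.5, 19.1, 7.82 and 58.4 and the fold 10.4, 8.21, 6.36 and 9.73. This was the single shared position off Mesp1 at which Ins had a higher fold than Inv:Del(CBS7-10).

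The position at 118494300, 16.1 kb after the start, was the one strong site that a library lacked. Its −log10 q was 40.7 in Ins, 12.8 in Inv and 88.8 in Inv:Del(CBS7-10), with pileups of 71, 21 and 131, and Del(CBS8-10) had no summit there. In that library the 2 shared Eomes sites were present, with pileups of 31 and 41.

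Folds at these Eomes sites were modest for their pileup because the local background was high. In Inv:Del(CBS7-10) it was 8.56 at 118488471, 12 at 118489822 and 10.9 at 118494300, against 4.22 at the strongest Gata4 site and 1.327 as the commonest value of the list. For example, a pileup of 159 over 12 gave a fold of 12.3 at Eomes, while 150 over 4.22 gave 28.9 at Gata4.

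The rest of the Eomes positions were weak. A position at 118470941, 7.25 kb before the start and inside the lncRNA gene Gm33408, had 11 in Ins and 17.2 in Inv:Del(CBS7-10). One at 118498259 had 17.9 in Ins and 3.32 in Del(CBS8-10), and one at 118488206 had 3.44 in Del(CBS8-10) and 3.0 in Inv:Del(CBS7-10). The nearest summit to the start, 399 bp after it at 118478588, was found in Ins alone, with a −log10 q of 8.27 and a pileup of 16. It lay in the overlap of Eomes and Gm33408. The other 3 positions had a −log10 q between 2.01 and 4.38, each in 1 library.

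Mixl1, a homeobox gene of the primitive streak (180693043 to 180697034 on chromosome 1), had no shared position and no summit inside the gene or within 2 kb of an end. Both of its positions lay inside the neighbour Lin9. At 180684852, 8.19 kb from the nearer end of Mixl1, −log10 q was 2.44 in Del(CBS8-10) and 10.3 in Inv:Del(CBS7-10). At 180676575, 16.5 kb away, it was 7.48 in Ins and 3.93 in Del(CBS8-10). The Inv list had no summit in this window. The absence of a strong site depends on the distance used, since a peak found in every library lay just past it, 23.5 kb from Mixl1. At that peak, whose Ins summit is at 180720540, −log10 q was 113, 45.3, 49.2 and 262 and the fold 22.2, 15.1, 20.8 and 25.4.

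**Figure D2:**
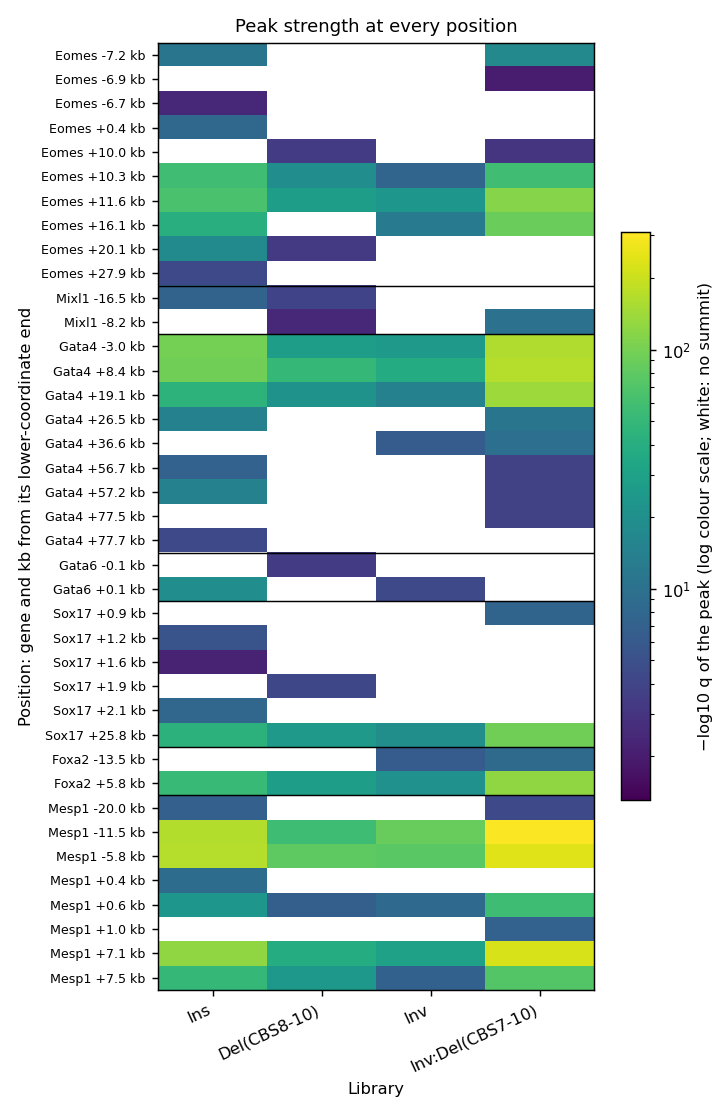
The −log10 q of each of the 39 positions (rows, by gene and kb from its lower-coordinate end) in each library (columns), on a logarithmic colour scale, white where the list has no summit. Rows filled in all 4 columns are the 12 shared positions, and the Inv:Del(CBS7-10) column is the brightest in each of them.

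Gata4, a zinc-finger factor of endoderm and heart (63198914 to 63271712 on chromosome 14), had 9 positions and 3 shared ones. The starts of its transcripts are not used here, and its span takes in every RefSeq transcript, predicted ones included. As general knowledge, the gene is read from the minus strand, so the higher coordinate is its start side. All 3 strong sites lay on the other side, in or just past the 3′ part of the gene, from 2.96 kb outside the lower end to 19.1 kb inside it.

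The Gata4 site at 63207314, 8.4 kb inside the lower end, had the highest fold of the 12 shared positions, 28.9 in Inv:Del(CBS7-10). In library order its −log10 q was 95.6, 49.9, 37.9 and 169 and its fold 23.2, 18.8, 18.8 and 28.9. The site at 63195957, 2.96 kb past the lower end towards Neil2, had 98.7, 27.4, 24.8 and 161 with folds of 20.7, 13.9, 14.4 and 24.8, and its 4 summits fell within 2 bp. The third, at 63217998, varied most between libraries in fold, at 15.7, 11.6, 10.1 and 24.5, with values of 44.9, 21.2, 14.4 and 140 for −log10 q. Its highest fold was 2.41 times its lowest, the largest such ratio of the 12 shared positions.

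Towards the start side Gata4 had weak positions only. They were at 63225381 (14.3 in Ins and 10.8 in Inv:Del(CBS7-10)), 63235508 (6.39 in Inv and 9.59 in Inv:Del(CBS7-10)), 63255602 (7.20 and 3.86 in Ins and Inv:Del(CBS7-10)) and 63256121 (14.4 and 3.86 in the same 2 libraries). Just past the higher end, Ins had a summit at 63276574 (4.38) and Inv:Del(CBS7-10) one at 63276415 (3.86), in peaks that overlapped each other.

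Gata6, the paralogue of Gata4 that directs primitive endoderm (11052510 to 11085636 on chromosome 18), differed from it in having no shared position. Its summits lay at the lower-coordinate end, which as general knowledge is its start, where it overlaps the antisense gene Gata6os. At 11052588, 78 bp inside the gene, Ins had a −log10 q of 19.0 with a fold of 11 and a pileup of 21, and Inv had 4.34 with 4.84 and a pileup of 5. Del(CBS8-10) had a summit 0.135 kb outside the gene, in Gata6os, at 11052375, with 3.46 and a pileup of 6. The peak around it lay wholly inside the Ins peak of 11052243 to 11052743, though the summits were too far apart to be joined. Inv:Del(CBS7-10), the deepest list, had no summit in the whole window of 73.1 kb. Thus Ins stood above the other libraries here, and the library with the highest −log10 q at every shared position of the other genes had no summit.

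Sox17, an HMG-box factor of definitive endoderm (4490928 to 4497426 on chromosome 1), had a single shared position, far from the gene. It lay at 4516744, 19.3 kb past the higher end, which as general knowledge is the start side. Its −log10 q was 44.1, 25, 19.3 and 93.9, its fold 16.1, 13.5, 12.2 and 20.7, and its pileup 46, 25, 18 and 94. Inside the gene were 5 further positions between 4491872 and 4493032, 0.944 to 2.1 kb from the lower end, each in 1 library. Of these Ins had 3 (−log10 q 5.44, 2.22 and 7.87), Del(CBS8-10) 1 (4.22) and Inv:Del(CBS7-10) 1 (7.65). No summit was within 100 bp of another, though the Ins peak around 4493032 overlapped the Del(CBS8-10) peak around 4492780.

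Foxa2, a forkhead factor of endoderm, node and floor plate (148042877 to 148046969 on chromosome 2, minus strand), had 1 shared position near its promoter. It lay at 148048628, 1.66 kb before the farthest upstream of 3 tabulated starts and 2.68 and 3.16 kb before the others. Its −log10 q was 52.7, 27.7, 20.6 and 125, its fold 14.4, 13.4, 12.2 and 19.9, and its pileup 62, 30, 21 and 132. The second position, at 148029384 inside the lncRNA gene 9030622O22Rik, was weak, with 6.39 in Inv and 8.68 in Inv:Del(CBS7-10).

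Over the 7 genes, a strong position was nearly always a shared one. Of the 13 positions whose highest −log10 q was 50 or more, 12 were in all 4 lists, and of the 26 under 20 none was. By class of highest −log10 q, 8 of 8 positions of at least 100 were shared at the 7 genes (98.3% of all positions of that class), 4 of 5 from 50 to 100 (84.4%), 0 of 17 from 5 to 20 (5.1%) and 0 of 9 under 5 (0.0299%). No position of the 7 genes fell between 20 and 50, where 42.2% of all positions were shared. In each class the count was close to the share over all positions. Of the 14 positions seen in 1 library, 8 were in Ins, 2 in Del(CBS8-10), 0 in Inv and 4 in Inv:Del(CBS7-10). Over all 47879 such positions the split was 30.4%, 18.9%, 12.4% and 38.3% in library order. Those at the 7 genes had a −log10 q from 2.01 to 8.95, folds from 3.28 to 6.02 and pileups from 6 to 24.

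**Figure D3:**
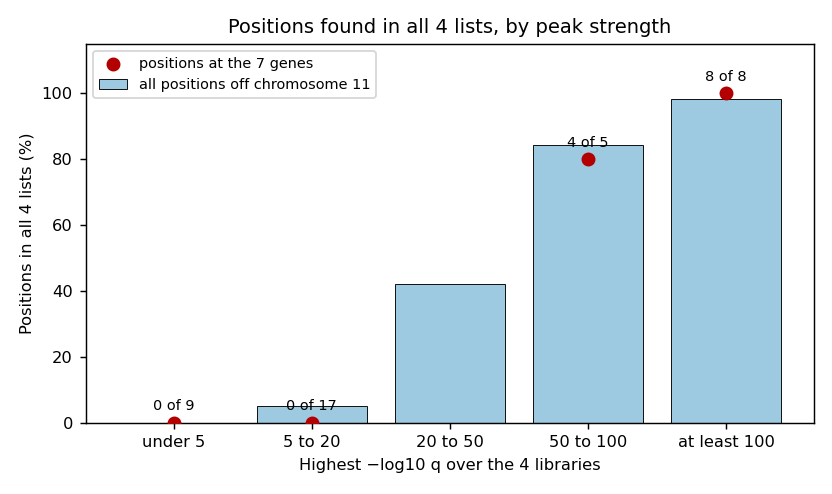
Share of positions found in all 4 lists (vertical axis, %) by the highest −log10 q over the libraries (horizontal axis), for all positions off chromosome 11 (bars) and for the positions at the 7 genes (points with counts). Points follow the bars, from 0 of 9 in the weakest class to 8 of 8 in the strongest.

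The libraries differed at the 12 shared positions. The median fold was 15.9, 13.1, 12.2 and 20.3 in library order, against 14.8, 10.9, 11 and 17.5 over all 40574 shared positions. Inv:Del(CBS7-10) had the highest −log10 q at 12 of 12 positions (86.5% of all shared positions) and the highest fold at 10 (70.5%). The lowest −log10 q was in Inv at 10 positions (56.1%) and in Del(CBS8-10) at 2 (41.6%), and the lowest percentile within a list was in Inv at 9 (52.0%). The lowest fold was in Del(CBS8-10) at 6 and in Inv at 6 positions, against 50.9% and 40.1% of all. The highest fold was in the median 1.63 times the lowest, against 1.78 over all shared positions (quartiles 1.51 and 2.22). The background was lowest in Inv, and over all shared positions the fold was lowest more often in Del(CBS8-10). The part of depth in these values was not tested.

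**Figure D4:**
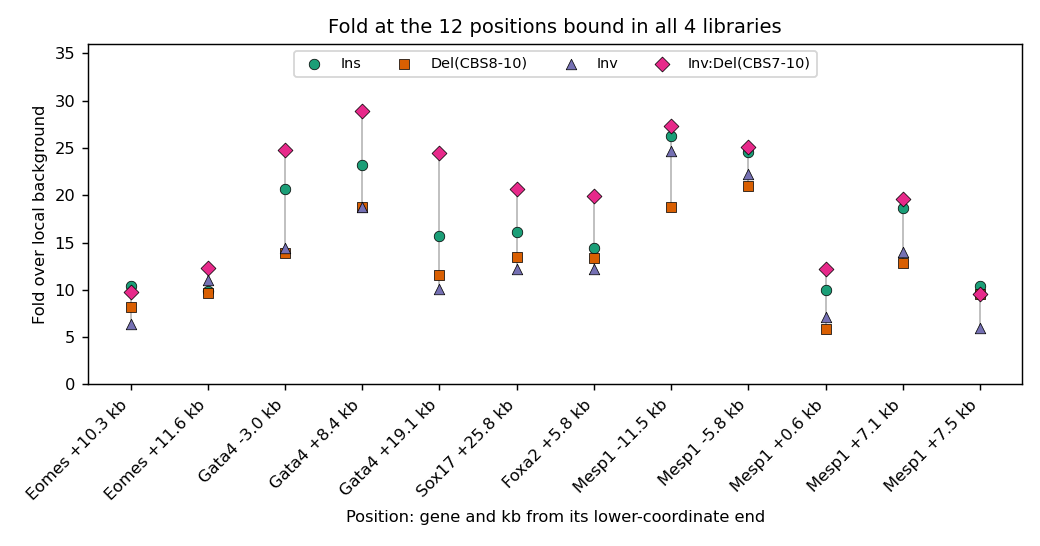
Fold over local background (vertical axis) in each library at the 12 positions found in all 4, named by gene and kb from the gene's lower-coordinate end (horizontal axis). Grey lines join the lowest and highest library. The Inv:Del(CBS7-10) library is highest at 10 positions and Ins at the other 2.

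At the 12 shared positions the outermost summits lay 2 to 31 bp apart (median 14.5), against a median of 18 bp over all shared positions. Joining summits within 100 bp keeps such spans small by construction. Peaks at the 12 shared positions were 222 to 887 bp wide, with a median of 484.5 bp, while peaks at positions of a single library were 200 to 462 bp wide. Of the 12, 3 lay inside a regulator gene, 2 inside another gene and 7 between genes. Of the 14 positions of single libraries 8 lay inside a regulator gene, 5 of them in Sox17. No share over all positions is given beside these places and widths, so they describe the 7 genes only.

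A summit within 20 kb was found in all 4 lists for 5 of the 7 genes, the exceptions being Mixl1 and Gata6. The same held for 79.9% of 20274 protein-coding genes and 66.7% of all 46852 genes off chromosome 11. A promoter summit, within 2 kb of a tabulated start or, where none is tabulated, of either end of the gene, was present in all 4 for Foxa2 and Mesp1, 2 of 7, against 26.2% of protein-coding genes. Eomes had one in 1 library, Gata6 and Sox17 in 3 and Mixl1 and Gata4 in none, and at Sox17 it lay at the end that is not the start. Both counts are near the background.

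Other genes of the same pathways, from lists taken with earlier results of these data known, were counted in the same way. Of 29 germ layer genes off chromosome 11, among them Nodal and its antagonists Lefty1 and Lefty2, 27 had a summit within 20 kb in all 4 lists, and Cxcr4 and Sox7 did not. The same count over protein-coding genes is the 79.9% above. A promoter summit was in all 4 lists for 8 of the 29, against 26.2% of protein-coding genes. By the median −log10 q over the libraries, the strongest were at Foxa1 (95.3), a paralogue of Foxa2, at the mesoderm T-box gene Tbx6 (75) and at the Nodal coreceptor gene Tdgf1 (59.4). Cxcr4 (2 libraries) and Sox7 (1) lie outside the naming rule and were singled out after their values were seen.

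All 16 pluripotency genes had a summit within 20 kb in all 4 lists, and 5 of them a promoter summit. Over protein-coding genes these shares were 79.9% and 26.2%, for this list and the neural one below. The strongest were at Tdgf1 and Tbx3, which are also in the germ layer list (59.4 and 48.5), and at Dppa3 (24.4). Tbx3 and Dppa3 have no tabulated start, so their summits were counted at either end of the gene and may not lie at the start. Of 10 neural genes 8 had a summit within 20 kb in all 4 lists, and Neurod1 and Zic1 had one in none. Promoter summits in all 4 were present at 3, with median −log10 q in parentheses, namely Nes (97.5), Neurog2 (17.2) and Olig2 (15.3). Shared positions per 100 kb had a median of 2.27 for the 7 regulators, 4.76 for the other germ layer genes, 3.94 for the pluripotency genes and 3.45 for the neural genes, beside 2.44 for protein-coding genes and 2.13 for all genes. The lists are short, neighbouring genes share peaks, and the differences between them were not tested.

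**Figure D5:**
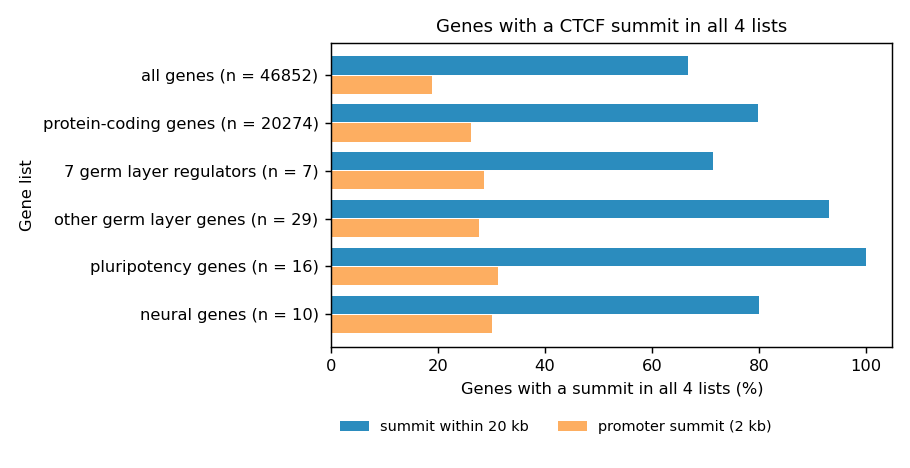
Percent of genes (horizontal axis) with a CTCF summit in all 4 lists within 20 kb of the gene (blue) or at a promoter (orange), for each gene list (vertical axis). The 7 regulators, at 71.4% and 28.6%, lie near the protein-coding genes at 79.9% and 26.2%.

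The 20 kb limit cut through some clusters. Just inside it were the Mesp1 position at 79772267, the single Ins summit at 118506103 near Eomes (19.97 kb, −log10 q 4.38) and the shared Sox17 site at 19.3 kb. Just outside were a Mesp1 peak found in every library at 79771880 in Ins (20.36 kb), with −log10 q of 18.5, 6.36, 25.9 and 62.0, and the Mixl1 peak at 23.5 kb. Gata4 had summits 20.76 to 20.86 kb away in Inv (5.91), Inv:Del(CBS7-10) (16.9) and Ins (15.5). Gata6 had summits 22.78 to 22.82 kb away in Del(CBS8-10) (10.4), Ins (5.41) and Inv:Del(CBS7-10) (6.65).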

How the data were processed

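CTCF CUT&RUN peak lists of 4 mESC lines, 1 library each, were used as deposited. Per the submitters' processing notes, the tools were MACS2 2.2.7.1, Bowtie2 2.4.5, cutadapt 4.1, bedtools 2.30.0 and Picard, with the build mm10. Their settings, and whether a control was used, are not stated in those notes. The files carry no header and were read in the narrowPeak layout. In the lists the authors deposited, the score is 10 times the −log10 q without its decimals. Fold, −log10 p and −log10 q were computed by the authors' peak caller within each library.

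From these, summits (start plus offset, counted from 1) were set against genes of the RefSeq table for GRCm38.p6, the assembly behind mm10, with Python 3.11.15, NumPy 2.4.6, pandas 2.3.3, SciPy 1.17.1 and Matplotlib 3.10.9. Both copies of chromosome 11 were left out. Summits within 100 bp were joined by single linkage. The fold was read as (pileup + 1) / (background + 1) and −log10 p as a Poisson tail, which gave a whole-number pileup for 100.0% of peaks in every list (tolerance 0.001). Joining, counting and this recovery were checked on simulated peaks. Exons and transcript models were not used. Promoters of the other 4 were taken as either end of the gene, in place of the planned start, and their strand, where mentioned, is general knowledge. The same either-end rule was used for every other gene with no tabulated start, Tbx3 and Dppa3 among them. The RefSeq promoter table, which gives strand and start, had entries for 3 of the 7 genes. No test was run. Named with values were all positions in at least 2 libraries or with a −log10 q of at least 10; of the lists, genes with no summit and the 3 strongest promoters. The genes, lists and rules were chosen with earlier results of these data known. Alternatives were the 20000 strongest peaks of each list, peaks past a −log10 q of 10, other joining rules, other windows and promoter sizes, and leaving out the Inv library.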

Additional observations from a re-analysis of the deposited data

How the results depend on the processing

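Of 46 recomputed counts, 26 stayed within 1.5 times the reported one and 20 did not. With a −log10 q minimum of 10 the summits per library were 18, 11, 10 and 16 in library order, the positions 19, and the genes with a promoter summit in all 4 lists 1. With the 20000 strongest peaks of each list the summits were 6, 7, 6 and 8, the positions 8, those in all 4 lists 6, the genes with a summit in all 4 lists 3 and those with a promoter summit 0. With 50 kb around the genes the summits were 45, 32, 26 and 44 and the positions 62. A promoter of 500 bp left 0 genes with a promoter summit in all 4 lists. Fewer peaks or a longer stretch make these counts smaller or larger by construction. The 12 shared positions became 9 to 18 under the other alternatives. Without the Inv library 12 positions were in all 3 remaining lists, 6 genes had a summit and 3 a promoter summit, the added ones being Mixl1 and Sox17. At Sox17 these summits were at different positions in each list, near the end that, as general knowledge, is not the start. With 1 library per genotype, no replicate could be left out, and depth is known only through the background values.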

Other observations

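A summit near a gene in every library is not always the same site. Of 49 listed genes other than the 7 regulators with a summit within 20 kb in all 4 lists, 5 had no position found in all 4, namely the Nodal effector Smad2, the pluripotency factors Tfcp2l1 and Klf5, and the neural factors Pax6 and Otx2. This was 10.2%, against 3.91% of 16201 protein-coding genes (633), and the difference was not tested. Tfcp2l1 had 12 positions in its window and Smad2 7. These genes were picked out after their values were seen.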
